A study of Homo sapiens with 6 samples.

Results

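The S100 genes encode small calcium-binding proteins, and the 10 members described here were chosen by name as the S100 genes of myeloid cells, out of 26485 genes listed. They are S100A4, S100A6, S100A8, S100A9, S100A10, S100A11, S100A12, S100A13, S100P and S100Z. THP1, a human monocytic leukemia cell line with an MLL rearrangement, was treated for 6 h with the steroidal lactone withaferin A (WFA) or with its DMSO vehicle. RNA of both groups from 3 independent experiments gave 6 RNA-seq libraries, 3 per group. DMSO cells received no other agent, and both groups are one unmodified line, so the data describe 1 line at 1 time. The labels give the WFA dose as 1 mM, while the paper's methods and its RNA-seq figure give 1 μM for these sequenced cells. Total counts lay between 11006035 and 13872810 per library. Of the 10 members, 9 had enough counts to be tested and S100Z had none.

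S100 proteins have paired EF-hand loops that bind calcium, and most of them work as dimers that expose a binding surface for other proteins when calcium rises. S100A8 and S100A9 form calprotectin, the main calcium-binding complex of neutrophils and monocytes, which is secreted and signals through TLR4, and S100A12 belongs to the same calgranulin group. S100A10 and S100A11 bind annexins, the proteins that attach to membranes in the presence of calcium, and S100A10 is unusual in that it needs no calcium to do so. S100A4 binds non-muscle myosin, S100A6 binds CACYBP, S100A13 takes part in the release of proteins that lack a signal peptide, and S100P binds ezrin.

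After WFA, S100A10 and S100P rose and S100A11 fell, while the other 6 tested members did not pass the threshold. S100A10 was 2.65-fold and S100P 2.87-fold higher, and S100A11 fell by 29.1%. A gene was called at an adjusted p-value under 0.05 in the quasi-likelihood test of edgeR (Benjamini-Hochberg, over all 12854 tested genes). In bulk RNA a change in a transcript per cell and a change in the share of cells that carry it cannot be told apart. That is 3 of 9 tested members, or 33.3%, whereas 50.5% of all tested genes were called, 25.8% as higher and 24.7% as lower. Higher genes made up 51.0% of the calls with TMM and 41.6% when libraries were scaled by total counts. More than 2-fold rises were called for 2 of the 9 members and 8.11% of all tested genes, and more than 2-fold falls for 5.2% of all tested genes and no member, the lowest estimate being -0.50. DESeq2 without the block called the same number, 3, where it called 46.9% of all tested genes. The median log2 fold change was 0.03 over the 9 members and 0.02 over all tested genes, and the median size of the change, whatever its sign, was 0.44 for the members and 0.36 for all genes.

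Across all tested genes, libraries of the same replicate number deviated together from their group means (correlations of 0.20, 0.31 and 0.23). For S100A8, S100A9, S100A11 and S100A12, the WFA library was below the DMSO library of the same number in all 3 pairs. For S100A6, S100A10 and S100P it was above in all 3. The log2 difference of S100A12 in pair 1 was only -0.04. How many of all tested genes keep one sign in all 3 pairs was not counted, so this cannot be called particular to the members. When the replicate number was added to the edgeR fit as a block, 6 of the 9 members were called, with S100A13 now higher and S100A8 and S100A9 now lower (59% of all tested genes were called in that fit). DESeq2's Wald test with the same block called 5 of 9, without S100A13 (45.5% of all tested genes). The edgeR fit with the block has 2 residual degrees of freedom against 4, and its prior degrees of freedom were infinite against 10.8, so its p-values rest on a spread shared over genes and not on that of each gene. Blocked values are given below where they change a call.

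Every WFA library was above every DMSO library for 2 of the 9 members (29.6% of all tested genes) and below for 1 (28.5%), so the groups did not overlap for 3 members (58.1%).

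**Figure D1:**
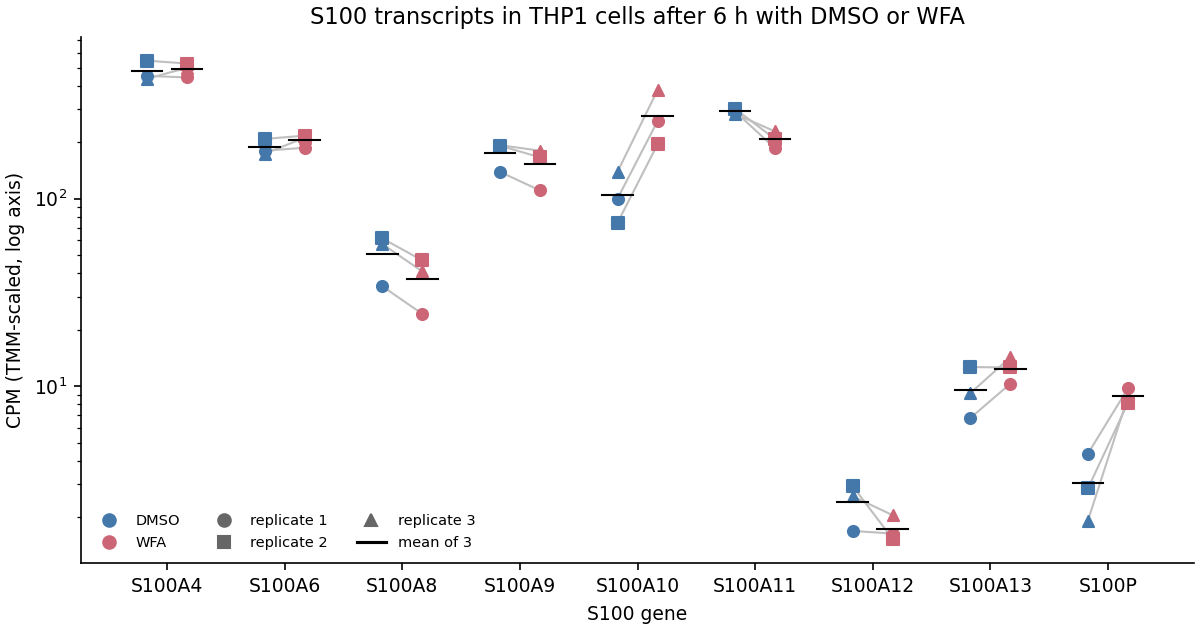
Library-scaled counts (CPM with TMM factors, log axis) of the 9 tested S100 genes in each library, with DMSO in blue and WFA in red. Marker shapes are replicates 1 to 3, grey lines join libraries of the same number and black bars are means of 3. The groups are apart for S100A10, S100A11 and S100P and overlap for the other 6.

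S100A10, the p11 subunit that joins ANXA2 in a heterotetramer at the plasma membrane, was measured at 100.1, 74.4 and 139 CPM in DMSO replicates 1, 2 and 3 and at 259, 195 and 379 CPM in the WFA replicates. CPM stands for counts scaled to library size, with TMM factors. All WFA libraries lay above all DMSO libraries, although replicate 3 was the highest and replicate 2 the lowest in both groups. The mean went from 105 ± 32.6 to 278 ± 93.5 CPM (SD, n = 3 each). The edgeR estimate on the log2 scale was 1.41 (standard error, SE, 0.22, edgeR adjusted p = 7.47e-05). The wide SD came from the differences between experiments, since the log2 difference within the pairs was 1.37, 1.39 and 1.45. Permuting the 6 libraries exactly (two-sided) gave p = 0.1, the smallest value possible with 3 against 3, and the same holds for S100A11 and S100P.

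S100A11, which binds ANXA1 and takes part in membrane repair, went the other way. It had 291, 301 and 283 CPM in the DMSO replicates and 185, 208 and 228 CPM in the WFA replicates, so the groups did not overlap. The mean went from 292 ± 9.05 to 207 ± 21.5 CPM (SD, n = 3 each). On the log2 scale the change was -0.50 (SE 0.09, edgeR adjusted p = 0.000394). Within the pairs the log2 differences were -0.65, -0.54 and -0.31.

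S100P, a member best known from placenta and carcinoma, was low in these cells. Its counts were 62, 36 and 23 in the DMSO replicates and 119, 101 and 94 in the WFA replicates, or 4.36, 2.84 and 1.92 CPM against 9.72, 8.13 and 8.75 CPM. The WFA libraries were close to each other and all above the DMSO libraries, which spread more. Its log2 fold change was 1.52 (SE 0.24, edgeR adjusted p = 8.69e-05), and the differences within pairs ran from 1.15 to 2.17. The rise of S100P was similar in size to that of S100A10, though from a level per kilobase of transcript of 2.38 CPM per kb in place of 115.

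S100A8, the smaller subunit of calprotectin, had 34.0, 61.3 and 57.2 CPM in the DMSO replicates and 24.3, 46.8 and 40.9 CPM in the WFA replicates. The groups overlapped because replicate 1 was low in both. Within the pairs S100A8 was lower with WFA by nearly the same amount each time, with log2 differences of -0.49, -0.39 and -0.49. Without the block the log2 fold change was -0.44 (SE 0.22, 95% interval -0.91 to 0.02, edgeR adjusted p = 0.101). With the replicate block it was -0.45 (SE 0.10, edgeR adjusted p = 1.05e-05), and DESeq2 with the block gave -0.47 (DESeq2 adjusted p = 0.000422). Single libraries moved this value. It was -0.67 without DMSO replicate 1 (edgeR adjusted p = 0.0118) and -0.65 without WFA replicate 2 (edgeR adjusted p = 0.0257), but -0.21 without WFA replicate 1 (edgeR adjusted p = 0.408) and -0.30 without DMSO replicate 2 (edgeR adjusted p = 0.289). Without a filter on low counts the adjusted p in edgeR was 0.000746, with the robust edgeR fit it was 0.287, and DESeq2 with no block gave an adjusted p of 0.325.

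S100A9, the larger subunit, had 139, 192 and 193 CPM with DMSO and 111, 166 and 180.1 CPM with WFA. Replicate 1 was again the lowest library of each group, and the ranges overlapped. The log2 fold change was -0.20 (SE 0.16, 95% interval -0.53 to 0.14, edgeR adjusted p = 0.315), with -0.33, -0.21 and -0.10 within the pairs. The replicate block gave -0.21 (edgeR adjusted p = 0.017), and DESeq2 with the block gave -0.22 (DESeq2 adjusted p = 0.0341). The unblocked change depended on WFA replicate 1, without which it was -0.010 (edgeR adjusted p = 0.959). S100A12, or calgranulin C, was near the lower end of what these libraries measure, with 24, 37 and 31 counts in the DMSO replicates and 20, 19 and 22 in the WFA replicates. All its WFA counts were below its DMSO counts, but after scaling the groups overlapped, at 1.69, 2.92 and 2.58 CPM against 1.63, 1.53 and 2.05 CPM. Its log2 fold change was -0.46, with a 95% interval from -1.07 to 0.15 (edgeR adjusted p = 0.194), so neither a fall of more than 2-fold nor no change lies outside the interval.

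S100A4 and S100A6 were nearly level between the groups. S100A4, the metastasis-associated member, had 451, 544 and 436 CPM with DMSO and 443, 525 and 499 CPM with WFA, a log2 fold change of 0.03 (95% interval -0.19 to 0.26, edgeR adjusted p = 0.805). S100A6, or calcyclin, had 180.1, 208 and 174 CPM against 187, 217 and 211 CPM, a log2 fold change of 0.13 (95% interval -0.07 to 0.33, edgeR adjusted p = 0.275). Both intervals leave out a change as large as that of S100A10 or S100A11. For S100A4 the sign was not stable and turned negative with total counts in place of TMM (-0.05) and in 3 of the fits without one library.

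S100A13 had 6.75, 12.6 and 9.17 CPM in the DMSO replicates and 10.3, 12.6 and 14.2 CPM in the WFA replicates. Replicates 1 and 3 were higher with WFA and replicate 2 was level, with log2 differences of 0.61, -0.01 and 0.63. The log2 fold change was 0.38 (95% interval -0.05 to 0.81, edgeR adjusted p = 0.134), and 0.39 once the replicate block was added (edgeR adjusted p = 0.013). It also passed without DMSO replicate 2, at 0.63 (edgeR adjusted p = 0.0168). S100A13 overlaps S100A1 on the opposite strand, and the library kit keeps no strand, but S100A1 itself had at most 1 count in any library. S100Z had 0 counts in all 6 libraries, which allows up to 0.211 to 0.279 CPM per library (3 counts, counting error only). The 11 other S100 genes looked up were at or near zero too. Of these, 5 had no count, 8 had at most 3 counts in every library and none passed the filter, and the highest count was 10, in S100A2 and in S100B.

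**Figure D2:**
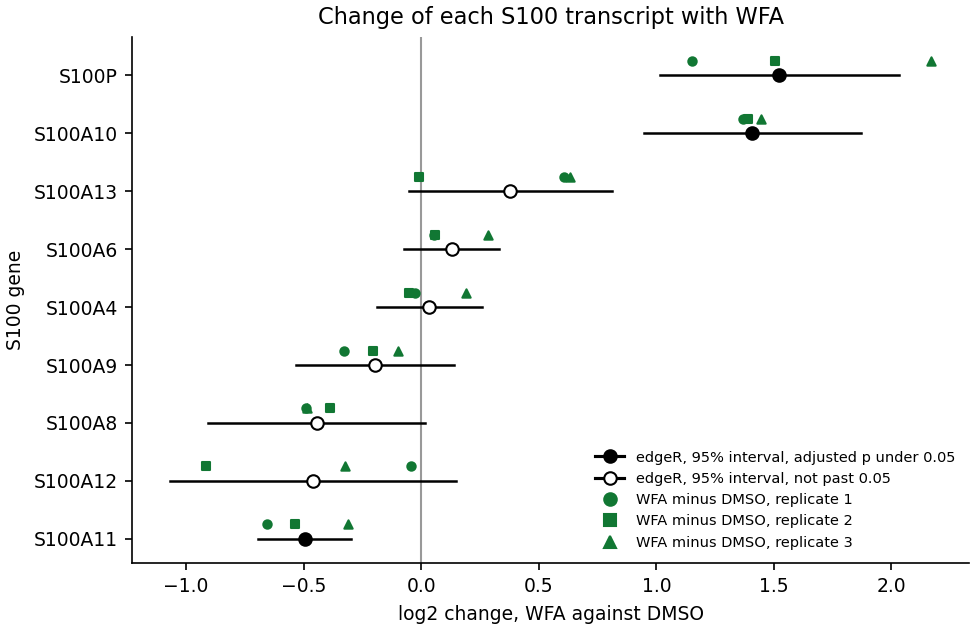
Log2 change of each tested S100 gene, WFA against DMSO. Circles with bars are the edgeR estimate and its 95% interval, filled where the adjusted p-value is under 0.05, and green marks are the differences of the same-numbered libraries. S100P and S100A10 lie above 0 and S100A11 below 0 with their whole interval, and the 3 green marks of S100A8 lie close together at -0.49, -0.39 and -0.49.

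Levels can be compared between genes only per length, and here the mean CPM was divided by the median length of each gene's coding transcripts in GENCODE 29. In DMSO cells S100A4 was highest at 838 ± 103 CPM per kb (SD, n = 3), then S100A11 at 491 ± 15.2, S100A9 at 302 ± 53.4, S100A6 at 280.04 ± 27.5, S100A10 at 115 ± 35.9 and S100A8 at 99.9 ± 28.9. S100A9 and S100A6 did not differ beyond their spread, nor did S100A10 and S100A8. S100A13 (16.9), S100A12 (4.63) and S100P (2.38) followed far below. With WFA S100A10 stood at 305 ± 103 CPM per kb, level with S100A6 at 306 ± 23.8 and close to S100A11 at 348 ± 36.2, and S100P at 6.93 ± 0.625 was above S100A12 at 3.35 ± 0.528. The place of S100A10 depends on the length used. Its median length was 909 bases and its longest 1202, against 669 and 673 for S100A6. By the longest length, S100A10 was at 87.0 CPM per kb in DMSO cells and S100A8 at 97.2.

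The family's total hardly moved while its make-up did. The members together took up 0.124 to 0.142% of all counts in the DMSO libraries and 0.118 to 0.153% in the WFA libraries. Their summed level was 1301 ± 95.3 CPM with DMSO and 1391 ± 167 CPM with WFA (SD, n = 3 each, exact two-sided permutation p = 0.5). Within that sum S100A10 went from 8.11% to 19.8% and S100A11 from 22.5% to 14.9%. The share of S100A4 was 36.6% and 35.3%. For the S100A10 and S100A11 shares the groups did not overlap (exact permutation p = 0.1 each, the smallest possible value).

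On human chromosome 1 (GRCh38), S100A10 and S100A11 are neighbours on the minus strand at one end of the S100 cluster, S100A10 at chr1:151982915-151993859 and S100A11 at chr1:152032506-152037004, with 38646 bases between them. S100A9 (chr1:153357854-153361023), S100A12 (chr1:153373711-153375621) and S100A8 lie together further along, followed by S100A6, S100A4 and S100A13. S100P is alone on chromosome 4 (chr4:6693878-6697170). The adjacent S100A10 and S100A11 therefore moved in opposite directions with WFA, and the neighbouring S100A8, S100A9 and S100A12 were all lower in each pair. The 250 bases before the RefSeq start of the 3 called members and of the calprotectin pair are shown because these genes carry the changes described. Capitals mark the TATA box letters TATAAA, the GC box letters GGGCGG on either strand, and the heat shock element letters TTCNNGAA. The windows are chr1:151993860-151994109 (S100A10), chr1:152037005-152037254 (S100A11), chr4:6693628-6693877 (S100P, plus strand), chr1:153391074-153391323 (S100A8) and chr1:153357604-153357853 (S100A9, plus strand), with the others on the minus strand. Of the 3 RefSeq starts of S100A8, the one with a TATAAA nearest to 30 bases before it is shown.
S100A10: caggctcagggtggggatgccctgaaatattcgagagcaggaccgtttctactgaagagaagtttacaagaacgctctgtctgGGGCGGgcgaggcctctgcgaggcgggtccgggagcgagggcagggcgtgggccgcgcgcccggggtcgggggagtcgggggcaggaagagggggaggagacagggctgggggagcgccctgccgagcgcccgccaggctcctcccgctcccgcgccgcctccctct
S100A11: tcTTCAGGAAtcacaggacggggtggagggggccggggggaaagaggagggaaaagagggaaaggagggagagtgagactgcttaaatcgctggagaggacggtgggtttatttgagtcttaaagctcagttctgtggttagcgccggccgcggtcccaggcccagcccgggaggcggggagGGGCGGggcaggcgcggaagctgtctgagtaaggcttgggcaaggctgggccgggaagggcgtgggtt
S100P: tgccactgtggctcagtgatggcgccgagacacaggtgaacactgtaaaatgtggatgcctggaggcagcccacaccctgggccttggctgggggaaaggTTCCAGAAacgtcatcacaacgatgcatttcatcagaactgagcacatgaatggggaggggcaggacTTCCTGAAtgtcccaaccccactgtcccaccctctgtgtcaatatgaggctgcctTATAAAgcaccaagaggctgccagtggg
S100A8: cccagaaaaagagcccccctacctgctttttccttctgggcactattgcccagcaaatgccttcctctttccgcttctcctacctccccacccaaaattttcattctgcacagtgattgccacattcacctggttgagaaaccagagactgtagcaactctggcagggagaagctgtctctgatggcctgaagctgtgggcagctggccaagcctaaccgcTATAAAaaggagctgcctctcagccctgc
S100A9: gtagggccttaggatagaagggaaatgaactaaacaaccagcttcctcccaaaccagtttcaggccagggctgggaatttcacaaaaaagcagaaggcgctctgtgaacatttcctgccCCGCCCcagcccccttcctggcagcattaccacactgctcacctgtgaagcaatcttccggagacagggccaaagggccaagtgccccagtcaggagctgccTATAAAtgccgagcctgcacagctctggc

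The windows of the opposite-moving neighbours were GC-rich, 71.2% for S100A10 and 63.6% for S100A11 against a median of 58% over 35114 RefSeq windows, and each held a GGGCGG but no TATAAA. S100P, S100A8 and S100A9 had a TATAAA that began 28 or 29 bases before the start, and their windows were 55.6, 53.2 and 55.6% GC. For S100A8 the start was chosen by this position, so its place is not a result. The S100A8 window at chr1:153391189-153391438 held none of the letters searched. In the window at chr1:153390977-153391226 the TATAAA began 126 bases before the start. Over all windows of that length TATAAA was found in 10.7% and GGGCGG in 42.6%, on either strand. Among the 10 members TATAAA was found for 7 and GGGCGG for 5, counting all windows of the 2 members, S100A8 and S100A13, that have 3 each. TTCNNGAA was found in 6.62% of all windows and for 3 members, S100A11, S100A13 and S100P. S100P held 2 copies, beginning 150 and 83 bases before its start, and S100A11 had 1, beginning 248 bases before its start. Of the other letters searched on both strands, GAANNTTC (5.78% of windows) and TGANTCA, the AP-1 letters (6.57%), were found for S100A12 only. TGACNNNGC, from the antioxidant response element (10.9%), was found for S100A13. TTGCNNAA, from the C/EBP site (9.05%), was found for S100A11 and S100A12, and TGATGNAA, from the C/EBP-ATF site (3.14%), for S100P. These are matches of letters and not measured binding.

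The counts for the related genes below can be read against the 50.5% of all tested genes that were called, 25.8% as higher and 24.7% as lower. Of 12 annexin genes, 8 were tested, and 7 rose and 0 fell with WFA (25.8% of all tested genes rose), with a median log2 fold change of 0.45. No annexin had an unadjusted fall either, as all 8 estimates were above 0. ANXA1, a membrane-binding and anti-inflammatory annexin that partners S100A11, had 291, 277 and 331 CPM with DMSO and 1055, 817 and 1118 CPM with WFA. The WFA libraries were far above the DMSO libraries, with a log2 fold change of 1.73 (SE 0.12, edgeR adjusted p = 2.72e-08). ANXA2, the partner of S100A10, rose much less, from 184 ± 14.4 to 240 ± 53.1 CPM (SD, n = 3 each, log2 fold change 0.39, edgeR adjusted p = 0.0238), and its groups overlapped. ANXA5, ANXA6, ANXA7 and ANXA11 rose by 0.57, 0.46, 0.44 and 0.39 on the log2 scale. The only tested annexin not called was ANXA3, at 0.50 (edgeR adjusted p = 0.129). Reads of ANXA2 can be shared with its processed copies, of which ANXA2P2 had at most 23 counts per library.

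The ratio of partner transcripts within a library does not depend on how libraries are scaled, and 5 pairs were compared. S100A10 to ANXA2 had log2 ratios of counts of -0.95, -1.17 and -0.46 in the DMSO replicates and 0.0018, 0.11 and 0.43 in the WFA replicates. The ratio was 2.05-fold higher with WFA, and the groups did not overlap. S100A11 to ANXA1 went from 0.00035, 0.12 and -0.23 to -2.51, -1.98 and -2.29, and the ratio fell to 0.214 of its DMSO value. S100A6 to CACYBP went from -0.50, -0.10 and -0.15 to -2.13, -1.78 and -1.74, or to 0.322 of its DMSO value. For these 3 pairs the exact two-sided permutation p was 0.1, the smallest possible value (0.167 after Benjamini-Hochberg adjustment over 5 pairs), so no ratio could pass a threshold of 0.05. The subunits of calprotectin stayed nearer to each other. S100A8 to S100A9 had log2 ratios of -2.03, -1.64 and -1.75 with DMSO and -2.19, -1.83 and -2.14 with WFA, which overlapped, with the ratio lower in all 3 pairs (difference -0.24, exact permutation p = 0.2, adjusted 0.25). S100A12 to S100A9 overlapped as well, with a difference of -0.22 (exact permutation p = 0.4, adjusted 0.4).

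**Figure D3:**
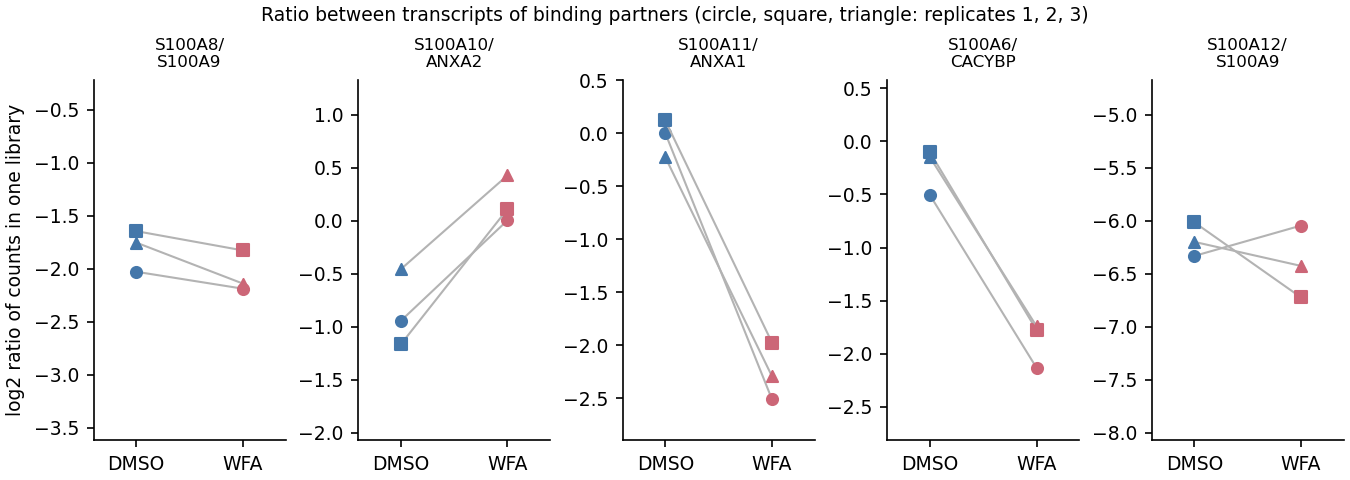
Log2 ratio of the counts of partner transcripts within each library, DMSO in blue and WFA in red, with lines joining replicates of the same number. All panels span the same range of log2 units, centred on their own data. The S100A10/ANXA2 ratio is higher in each WFA library, the S100A11/ANXA1 and S100A6/CACYBP ratios are lower in each, and the calgranulin ratios overlap.

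Of 12 genes for other proteins that S100 proteins bind inside the cell, 9 were tested, and 7 rose (25.8% of all tested genes) and 1 fell (24.7%), with a median log2 fold change of 0.49. CACYBP binds S100A6, takes part in a ubiquitin ligase complex and resembles a co-chaperone. It had 255, 223 and 192 CPM with DMSO and 820, 743 and 707 CPM with WFA (log2 fold change 1.76, standard error 0.11, edgeR adjusted p = 9.85e-09). SUGT1, an HSP90 co-chaperone that binds S100A6, rose from 61.3 ± 0.856 to 206 ± 23.4 CPM (SD, n = 3 each, log2 fold change 1.75, edgeR adjusted p = 2.63e-09). Both of these partners of S100A6 were thus over 3 times the DMSO level while S100A6 itself was level. S100PBP, which binds S100P, rose by 0.54 on the log2 scale, MYH9, the non-muscle myosin that S100A4 binds, by 0.51 and the tropomyosin gene TPM1 by 0.49. PPP5C, a phosphatase that S100 proteins can activate, fell by 0.52 on the log2 scale (edgeR adjusted p = 0.000167). AHNAK, the large scaffold held at the membrane by S100A10 and ANXA2, was the one tested gene not called, at -0.31 (edgeR adjusted p = 0.0817). The list had 2 genes called as lower, in place of 1, with the replicate block, with DESeq2 with or without it (adjusted p for AHNAK 0.0448 without), with total counts, with no filter, and in edgeR without DMSO replicate 2 or WFA replicate 3.

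Of 9 genes for receptors and their co-receptors that S100 proteins are reported to engage, 7 were tested and all 7 were called (50.5% of all tested genes), 5 as lower (24.7%) and 2 as higher (25.8%), with a median log2 fold change of -0.68. TLR4, the receptor of calprotectin, had 48.2, 43.5 and 54.1 CPM with DMSO and 35.7, 27.0 and 28.1 CPM with WFA (log2 fold change -0.68, standard error 0.12, edgeR adjusted p = 0.000304). CD14, its co-receptor, fell from 5.72 ± 1.89 to 2.45 ± 0.466 CPM (SD, n = 3 each, log2 fold change -1.22, edgeR adjusted p = 0.00165). CD36, a scavenger receptor, fell by 1.13 on the log2 scale, CD33, a sialic acid-binding inhibitory receptor, by 0.85, and the adhesion molecule ALCAM by 0.59, each with all WFA libraries below all DMSO libraries. LY96, which encodes the MD-2 protein that completes the TLR4 complex, went up by 0.91 (edgeR adjusted p = 0.047) from 0.948 to 1.92 CPM in the DMSO libraries to 1.37 to 3.54 CPM, and BSG, also called basigin or EMMPRIN, by 0.28 (edgeR adjusted p = 0.0258). With any 1 library left out, 1 of these 2 rises was called in place of 2, and scaling by total counts left none of them called. AGER, the RAGE receptor, had at most 1 count per library and CD69 none.

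The NADPH oxidase of phagocytes, which calprotectin helps to activate by delivering arachidonic acid, had 6 genes tested, of which 4 fell (24.7% of all tested genes), with a median log2 fold change of -0.44. CYBB, the catalytic gp91phox subunit, had 179, 156 and 193 CPM with DMSO and 121, 84.4 and 92.5 CPM with WFA (log2 fold change -0.82, standard error 0.12, edgeR adjusted p = 5.72e-05). NCF1, the p47phox subunit, fell by 1.59, NCF4, or p40phox, by 0.44 and the GTPase RAC2 by 0.44 on the log2 scale. NCF1 shares sequence with NCF1B and NCF1C, and NCF1C had 38 to 57 counts per DMSO library and 20 to 29 per WFA library, so reads may be split among them. CYBA, or p22phox, was at 0.29 (edgeR adjusted p = 0.0892), and with the replicate block it was called as higher (edgeR adjusted p = 0.000617).

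Of 8 transcription factor genes that act on S100A8 and S100A9, all were tested, and 3 fell (24.7% of all tested genes) and 2 rose (25.8%), with a median log2 fold change of -0.18. CEBPA, the factor of granulocyte and monocyte commitment, had 304, 314 and 279 CPM with DMSO and 194, 216 and 189 CPM with WFA (log2 fold change -0.58, standard error 0.09, edgeR adjusted p = 7.54e-05). CEBPD fell by 0.60 and SPI1, which encodes PU.1, by 0.34 on the log2 scale. SPI1 was near the threshold (edgeR adjusted p = 0.0461), and its groups overlapped. Genes of this list called as lower numbered 2 with upper quartile scaling, a minimum count of 30 and the robust fit. They were also 2 without DMSO replicate 1, DMSO replicate 2 or WFA replicate 1. With the replicate block in edgeR or DESeq2, and with total counts, they were 4. CEBPB rose by 0.43 (edgeR adjusted p = 0.0235) and HIF1A by 0.24 (edgeR adjusted p = 0.0446). Neither rise was called with libraries scaled by total counts, without DMSO replicate 1 or without DMSO replicate 2. DESeq2 called 1 of them (adjusted p for HIF1A 0.068), as did each of the other fits that left out a library. In this list 2 genes were called in place of 5 without DMSO replicate 1 or without DMSO replicate 2, and 3 without WFA replicate 1.

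A list of 18 other EF-hand calcium-binding proteins was also read, which is a chosen part of that protein class. All were tested, and 3 rose (25.8% of all tested genes) and 3 fell (24.7%). The median log2 fold change was 0.02, which is the median of all genes. CALM2, one of the calmodulin genes, had the largest change, from 565 ± 33.9 to 369 ± 27.2 CPM (SD, n = 3 each, log2 fold change -0.61, edgeR adjusted p = 6.03e-05). The others called were SRI and GCA, lower by 0.35 and 0.34 on the log2 scale, and PEF1, CHP1 and CAPNS1, higher by 0.53, 0.34 and 0.27. Without DMSO replicate 1, or without WFA replicate 3, 1 gene was lower in place of 3.

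**Figure D4:**
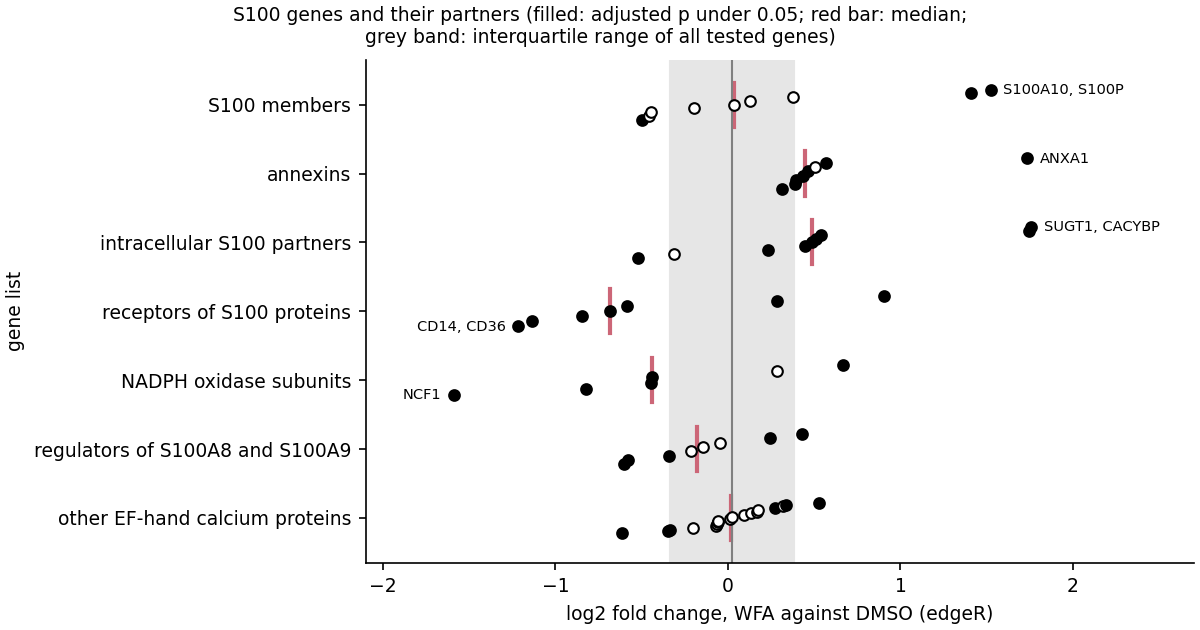
Log2 fold change with WFA of the tested S100 members and of 6 lists of related genes, one point per gene, filled where the edgeR adjusted p-value is under 0.05. Red bars are list medians, the grey line is the median of all tested genes and the grey band their interquartile range. The annexins sit above 0, 5 of the 7 receptor genes sit below it and the S100 members spread to both sides.

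The transcripts whose levels over the 6 libraries ran closest to those of calprotectin were found among 5881 tested genes with an average log2 CPM over 5, by the root mean square distance of mean-centred log2 CPM. For S100A8 the nearest was S100A9, at 0.20 log2 units, then MAN2C1 at 0.22 and PTTG1 at 0.22, against a median distance of 0.48. For S100A9 the nearest were ANPEP, which encodes CD13, at 0.11, PLXNB2 at 0.11 and CCNL2 at 0.12, against a median of 0.35. In all of these, as in S100A8 and S100A9, DMSO replicate 1 was the lowest DMSO library and WFA replicate 1 the lowest WFA library. They were picked for following that pattern, so this is not a separate result. The distance reads the treatment and the replicate together and rests on 6 libraries.

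The labelled cell type was checked against fixed markers. All 10 monocyte markers passed the filter, with a summed level of 2546 to 3086 CPM in the DMSO libraries and 2331 to 3116 CPM in the WFA libraries, and LYZ made up most of it. Of these 10 markers, 5 were called, or 50%, near the 50.5% of all tested genes. The 4 called as lower (24.7% of all tested genes) were CD14 (log2 fold change -1.22), CD33 (-0.85), CSF1R (-0.40) and SPI1 (-0.34). CD68 was called as higher (0.37), as were 25.8% of all tested genes. CD14, CD33 and SPI1 also stand in the receptor and transcription factor lists above. All 5 erythroid markers were at 0, the T cell markers summed to at most 0.948 CPM and the epithelial and keratinocyte markers to at most 1.06 CPM. Neutrophil markers summed to 79.9 to 109 CPM with DMSO and 85.9 to 127 CPM with WFA, mostly CSF3R and CXCR2, while FCGR3B was at 0. B cell markers summed to 4.09 to 5.72 CPM over all libraries. Fibroblast markers summed to 0.211 to 0.917 CPM with DMSO and 8.74 to 12.7 CPM with WFA, nearly all of it COL1A1, while COL1A2 and LUM were at 0. The part of these markers in the results above was not tested.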

How the data were processed

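RNA-seq libraries from THP1 cells (3 DMSO, 3 WFA, 6 h) were made with an Illumina TruSeq RNA v2 kit. For each gene symbol the deposited table holds raw, whole-number read counts made by the authors. Its rounded, rescaled columns (unit: score) and the fold changes and p-values of the authors were left unused. The submitters' processing notes name bcl2fastq 2.19, Trimmomatic, Bowtie2, Picard, featureCounts, DESeq2 and the build hg38. The annotation and the strand setting are not given in the sources used here. Of 26485 names, 28 look like dates and were kept, and no S100 gene is among them.

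Library sizes were scaled by TMM and low genes dropped by filterByExpr (minimum count 10), which left 12854 genes for the quasi-likelihood test of WFA against DMSO in edgeR 4.0.16 (R 4.3.3), fitted without a block. Benjamini-Hochberg adjustment covered all of these, at 0.05. The standard error is the log2 fold change divided by the square root of the F statistic. Single values were compared with exact permutation tests over the 6 libraries, which cannot give a p-value under 0.1. Ratios of counts used a pseudocount of 0.5. Transcript lengths are from GENCODE 29, gene positions and promoter windows from RefSeq (GRCh38.p14), where all 10 members were found. The fits were also run on simulated counts with 200 changed genes, as many up as down. Far more genes were called in the real data, so the simulation does not test the scaling or the adjusted p-values there.

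Replicate numbers come from the labels, where DMSO and WFA samples of one number also share the ending of their description, and the study describes 3 independent experiments. Same-numbered libraries deviated together from their group means (correlations of 0.20, 0.31 and 0.23 across genes), so the numbers were taken to pair the libraries and the block was fitted as an alternative. No pair of replicates was within sampling noise (chi-square per gene of 5.67 to 10.4). Precision depends on this spread between replicates as well as on total counts, which were 11006035 to 13872810 per library.

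The members and lists were chosen with earlier results of these data known. All members are named, and on each other list up to 6 called genes with the largest change, the genes of the ratios and the 3 genes nearest to S100A8 and to S100A9. ANXA3, AHNAK, BSG, CYBA, AGER, CD69 and the markers were named outside that rule, after their values were seen. The result of 1 gene on these lists is not reported here. Alternatives were the replicate block, DESeq2 1.42.0 with and without it, other scalings and filters, a robust fit and leaving out each library.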

Additional observations from a re-analysis of the deposited data

How the results depend on the processing

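S100A10, S100A11 and S100P kept their direction and their call under all 9 other settings and all 6 fits without 1 library, with log2 fold changes of 1.12 to 1.67, -0.58 to -0.42 and 1.29 to 1.89. The number of S100 members called was 3, but 6 with the replicate block and 5 with DESeq2 and the block, where 3 were lower in both cases. The members called as lower numbered 2 without a filter on low counts, and 1 to 2 with each library left out. S100A8 passed the threshold with the replicate block (-0.45), with DESeq2 and the block (-0.47), without a filter (-0.46) and in 2 of 6 fits without 1 library (-0.67 without DMSO replicate 1 and -0.65 without WFA replicate 2), over a range of -0.67 to -0.21 for all 6. S100A9 passed with the block (-0.21) and with DESeq2 and the block (-0.22), and ranged from -0.34 to -0.010 with each library left out, in none of which it passed. S100A13 passed with the block (0.39), and its range with each library left out was 0.17 to 0.63. S100A4 changed sign with total counts in place of TMM (-0.048) and in 3 of 6 fits without 1 library (-0.0065, -0.026 and -0.020, over a range of -0.026 to 0.13). The number of called factors acting on S100A8 and S100A9 was 2 to 4 with each library left out, against 5. Leaving out a library also leaves fewer samples, and for the other shifts the cause was not tested. The block changed no other call among the S100 members. The log2 change of the members' summed level was 0.092, against an SD within groups of 0.143. It was 0.0069 with total counts, 0.079 with DESeq2 size factors, 0.097 with upper quartile scaling and 0.12 without S100A4. The 5 partner ratios moved by less than 1 SD with a larger pseudocount. Leaving out 1 of 3 libraries cannot move a mean by 1 such SD. Averaging the pair differences returns the same value. Those fits therefore could not show a shift of that size in the sum or the ratios. With S100A12 at 19 to 37 counts and S100P at 23 to 119, counting depth limits what can be said of these genes, and with a minimum count of 30 S100A12 could not be tested.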
